A study of Mus musculus with 8 samples.

Results

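Fibrillar collagens are the proteins that form the load-bearing fibres of the artery wall. Here 7 of their genes (Col1a1, Col1a2, Col3a1, Col5a1, Col5a2, Col5a3 and Col11a1) were described in bulk RNA-seq of the whole mouse aorta. The members were taken by gene symbol, with the row of the largest summed count where a symbol named several rows. Thus 7 of the 48607 loci of the gene table were members, and all 7 symbols were found. Each fibrillar collagen is made as a procollagen whose 3 chains wind into a helix in the endoplasmic reticulum, and its ends are cut off outside the cell before the molecules join into fibrils. Types I and III are the bulk fibrils of arteries, while types V and XI are minor chains that sit inside fibrils and limit their width. In atherosclerotic lesions, smooth muscle cells and fibroblasts are the best known sources of these chains, and fibrillar collagen is a main component of the fibrous cap.

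All mice were deficient in apolipoprotein E (ApoE-/-), which gives them high plasma cholesterol, and all were fed a Western diet, for 12 weeks per the study's methods. By title, 5 libraries were ApoE-/- and 3 were ApoE-/-NPRC-/-. The second group also carried a CRISPR frameshift in exon 1 of Npr3, in all cells of the body. Npr3 encodes natriuretic peptide receptor C (NPRC), which clears natriuretic peptides and couples to inhibitory G proteins. The groups were described as littermates, the ApoE-/- mice were bought as males at 8 weeks of age, and the age at collection was not given for the sequenced animals. The study's methods describe 5 mice per group for sequencing, whereas 5 and 3 libraries were analysed here. The labels do not say whether a library is 1 mouse, so the p-values measure the spread between libraries. The genotype entry of a sample named the other genotype than its title in 4 of the 8 libraries: those titled ApoE-/- 4 and 5 were entered as double knockouts, and those titled ApoE-/-NPRC-/- 1 and 2 as ApoE-/-. Libraries were therefore grouped by title, and each comparison was repeated by genotype entry. The total count per library was 62969165 to 86693276. The level of Npr3 was 0.62 to 1.69 FPKM (fragments per kilobase of locus, scaled to library size) by title in ApoE-/- and 1.13 to 1.39 FPKM in ApoE-/-NPRC-/-. Its log2 fold change was 0.10 by title and 0.16 by genotype entry (unadjusted p = 0.737 and 0.585, edgeR's quasi-likelihood test), so the level of this message did not separate either set of labels. A frameshift need not change the amount of the message.

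In mouse build GRCm38 with the GENCODE M21 annotation, Col1a1 (ENSMUSG00000001506) lies at chr11:94936224-94953042 on the plus strand. Col1a2 (ENSMUSG00000029661) is at chr6:4504814-4541544 on the plus strand, and its row also carries the name of Gm43921, a transcript model inside it that awaits experimental evidence. Col3a1 (ENSMUSG00000026043), at chr1:45311538-45349706 on the plus strand, and Col5a2 (ENSMUSG00000026042), at chr1:45374321-45503282 on the minus strand, are neighbours that point towards each other with 24614 bases between the annotated genes. The assembled row of Col5a2 is slightly longer, at chr1:45374240-45503336. Both genes share their row with another name, Gm47302 (annotated as a microRNA) for Col3a1 and Gm38211 for Col5a2. Col5a1 (ENSMUSG00000026837) is at chr2:27886425-28039514 on the plus strand, Col5a3 (ENSMUSG00000004098) at chr9:20770050-20815067 on the minus strand, and Col11a1 (ENSMUSG00000027966) at chr3:114030540-114220718 on the plus strand. A small further row named Col3a1 began 1163 bases past its end and held 0.098% of the counts of the pair. For Col5a2, 2 plus-strand rows inside the gene held 1.39% and 0.313%. Summing these rows left every member's fold change the same in sign and call.

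The sequences before the start sites are shown for 3 members, because Col3a1 and Col5a3 had the highest Pearson's r over the 8 libraries among genes of different collagen types (below) and Col5a1 had the lowest values. By Spearman's rho, and by r without the 2 farthest libraries, other pairs of different types were higher. The windows hold the 250 bases upstream of the RefSeq start site (GRCm38.p6), read on the gene's own strand. Promoters of 5 of the 7 members were matched, with those of Col1a1 and Col5a2 not among them. Capitals mark matches to any of 3 motifs, on either strand and with no overlap between them. They are TATAAA, known as the TATA box, then CCAAT, known by its letters, and GGGCGG, known as the GC box. A match on the opposite strand appears as its reverse complement.
Col3a1, chr1:45311288-45311537, plus strand: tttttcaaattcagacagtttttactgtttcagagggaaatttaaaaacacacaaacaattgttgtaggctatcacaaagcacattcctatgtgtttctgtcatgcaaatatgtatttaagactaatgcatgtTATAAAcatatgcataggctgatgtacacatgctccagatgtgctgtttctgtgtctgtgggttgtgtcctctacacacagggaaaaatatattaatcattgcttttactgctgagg
Col5a3, chr9:20815068-20815317, minus strand: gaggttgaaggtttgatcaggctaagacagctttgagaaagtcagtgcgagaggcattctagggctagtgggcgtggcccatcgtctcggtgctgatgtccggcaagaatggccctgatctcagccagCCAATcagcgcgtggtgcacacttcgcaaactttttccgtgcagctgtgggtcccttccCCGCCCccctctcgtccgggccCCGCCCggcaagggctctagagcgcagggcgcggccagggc
Col5a1, chr2:27886175-27886424, plus strand: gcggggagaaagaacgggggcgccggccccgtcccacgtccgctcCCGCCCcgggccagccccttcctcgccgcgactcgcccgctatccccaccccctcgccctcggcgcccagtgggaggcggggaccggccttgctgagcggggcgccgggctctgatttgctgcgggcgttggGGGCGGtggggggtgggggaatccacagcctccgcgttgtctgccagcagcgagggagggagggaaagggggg

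The window of Col3a1 was 35.2% G and C and held 1 TATAAA and neither other motif. That of Col5a1 was 76.4% G and C and held 2 GGGCGG and neither other motif, and that of Col5a3 was 62.8% G and C with 1 CCAAT and 2 GGGCGG. The median G and C content over all 32851 promoters of the reference table was 52.4%. TATAAA was present in 12.4% of these windows, CCAAT in 33.8% and GGGCGG in 32.7%. The windows of Col1a2 and Col11a1, with 62.0% and 62.4% G and C, each held 1 CCAAT and 2 GGGCGG. Thus 4 of the 5 windows had GGGCGG and Col3a1 was the only 1 of them with TATAAA. These are matches of letters and were not tested as binding sites.

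The 7 genes together took between 0.442% and 1.81% of the counts of a library. Their order of abundance depended on the length by which counts were divided. The deposited FPKM values imply a length for each locus that was 1.22 (Col5a1) to 4.0 (Col5a2) times its main coding transcript in GENCODE, since loci were assembled from several transcripts. Levels were therefore compared between genes as counts per kilobase of that transcript scaled to the total count of the library (CPM per kilobase). On this scale, Col3a1, the single chain of type III collagen, was highest with a median of 690 over the 8 libraries (229 to 1126). Col1a1, the alpha-1 chain of type I collagen, had a median of 487 (194 to 1086), and Col1a2, its alpha-2 chain, 399 (207 to 661). Col3a1 was above Col1a1 in 8 of 8 libraries per transcript kilobase but in 0 of 8 by FPKM, and Col1a1 was above Col1a2 in 6 of 8. Both main chains of type V collagen came next, with medians of 87.3 for Col5a2 and 79.8 for Col5a1. These neighbours were not separable, as Col5a2 was higher in 5 of 8 libraries per transcript kilobase and in 0 of 8 by FPKM. Col5a3, a type V chain of narrower expression, had a median of 5.44, and Col11a1, a type XI chain best known from cartilage, 0.218. Within a library, Col1a2 was 3.92 to 5.59 times Col5a2 (median 4.92).

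Type I collagen is the main tensile fibre of the lesion cap and adventitia. Col1a1 had 362, 435, 823, 670 and 242 FPKM in ApoE-/- 1 to 5 (by title), and 363, 144 and 251 FPKM in ApoE-/-NPRC-/- 1 to 3. Libraries ApoE-/- 3 and 4 were highest and ApoE-/-NPRC-/- 2 lowest, and the groups overlapped because ApoE-/- 5 was below ApoE-/-NPRC-/- 1 and 3. The mean was 507 ± 236 FPKM (SD, n = 5) against 252 ± 110 (SD, n = 3). The log2 fold change in counts, ApoE-/-NPRC-/- over ApoE-/-, was -1.02 (SE 0.49), which did not pass the test (adjusted p = 0.393, edgeR's quasi-likelihood test over 20506 loci). In whole tissue, fewer cells that make a message and less of it per cell cannot be told apart. Col1a2 had 120, 137, 201, 177 and 98.4 FPKM in the ApoE-/- libraries and 118, 61.4 and 99.6 FPKM in the double knockouts. In log2 CPM the 8 libraries had the same order for Col1a2 as for Col1a1. Its range was narrower and its log2 fold change was -0.65 (SE 0.34, adjusted p = 0.422, edgeR).

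Col3a1 encodes type III collagen, which gives compliance to the arterial media. It had 297, 348, 536, 509 and 206 FPKM in ApoE-/- 1 to 5 and 350, 106 and 163 FPKM in ApoE-/-NPRC-/- 1 to 3. Again ApoE-/- 3 and 4 were highest, but here ApoE-/-NPRC-/- 1 ranked 3 of the 8 libraries and was above 3 of the 5 titled ApoE-/-. The means were 379 ± 141 FPKM (SD, n = 5) and 206 ± 128 (SD, n = 3), with a log2 fold change of -0.89 (SE 0.48, adjusted p = 0.434, edgeR).

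Type V collagen nucleates fibrils and sets their width, usually with Col5a1 and Col5a2 chains in 1 molecule. Col5a1 had 58.6, 66.6, 97.9, 88.2 and 46.1 FPKM in the ApoE-/- libraries and 75.9, 55.1 and 63.2 FPKM in the double knockouts. The 3 double knockouts fell inside the range of the other group, and the lowest library was ApoE-/- 5. Its log2 fold change was -0.14 (SE 0.29, adjusted p = 0.850, edgeR), the smallest of the 7. Col5a2 had 19.9, 23.4, 29.8, 36.2 and 14.6 FPKM against 24.9, 11.2 and 14.9 FPKM, and was the only member that was highest in ApoE-/- 4. Its log2 fold change was -0.55 (SE 0.37, adjusted p = 0.527, edgeR). Col5a3, which can replace another chain in a part of type V molecules, had 2.95, 3.31, 5.25, 3.78 and 1.95 FPKM against 2.70, 0.98 and 1.32 FPKM. Of the double knockouts, 2 were below all ApoE-/- libraries, while ApoE-/-NPRC-/- 1 was above ApoE-/- 5. Its log2 fold change was -1.06 (SE 0.41, 0.481-fold) with an unadjusted p of 0.0307 and an adjusted p of 0.328 (edgeR).

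Col11a1 was near the detection limit. Its counts were 119, 164, 275, 244 and 66 in ApoE-/- 1 to 5 and 161, 3 and 83 in ApoE-/-NPRC-/- 1 to 3, equal to at most 0.22 FPKM. It did not reach 1 FPKM in any library, so it was outside the filter of at least 1 FPKM in at least 3 libraries. In the fit without that filter its log2 fold change was -1.22 (SE 0.83, adjusted p = 0.574, edgeR). The value of 3 counts in ApoE-/-NPRC-/- 2, listed at 0 FPKM, was the lowest of any member.

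**Figure D1:**
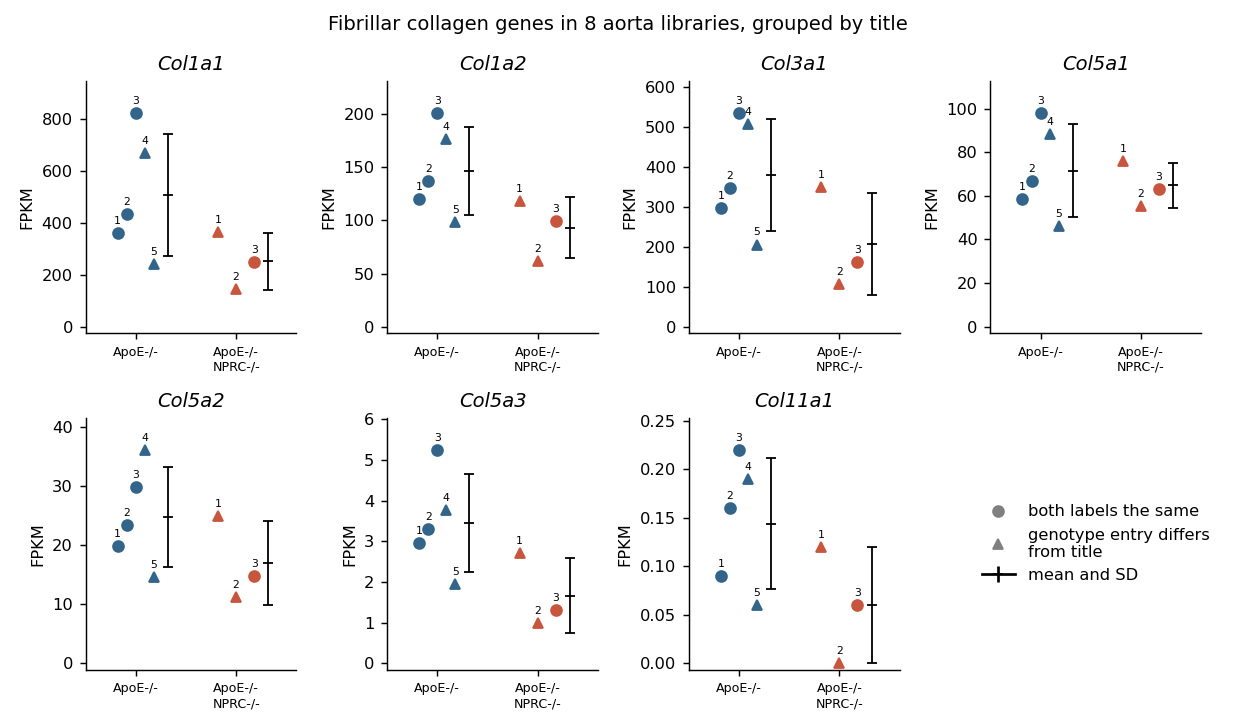
FPKM of each fibrillar collagen gene (y axis, linear) in each library, grouped by title (x axis). Circles are libraries whose title and genotype entry name the same genotype, triangles those whose labels differ, small numbers are the library numbers, and bars give the mean and SD of 5 and 3 libraries. Libraries ApoE-/- 3 and 4 are on top in all 7 panels and the groups overlap in each, with Col1a1 at 242 to 823 against 144 to 363 FPKM.

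By the criterion of the study's methods, which asks for a change of over 2 times in either direction (fold over 2 or under 0.5) and p under 0.05 before adjustment, 1 of the 6 tested members was called by title, namely Col5a3, which was lower in ApoE-/-NPRC-/-. Over all 20506 loci tested, 3.47% were called, and 2.39% in this direction. Col1a1 was just outside on its p (0.494-fold, unadjusted p = 0.0660) and Col3a1 on both (0.539-fold, unadjusted p = 0.0944). At an unadjusted p under 0.05 the count was again 1 of 6, with 13.6% of all loci. At an adjusted p under 0.05 it was 0 of 6 members, as it was 0 of all loci. DESeq2 gave 0 of 6 members at that threshold, with 650 of all loci, and 4 at the unadjusted one, with 3423 of all loci. Limma voom with array quality weights gave 0 members with 130 loci, and 5 members with 5419 loci. The titled groups did not overlap for 0 of 7 members and for 7.42% of all loci. All 7 log2 fold changes were below 0, as were 50.9% of those of all loci, with a median of -0.77 over the 6 tested members and -0.01 over all loci. As the members rise and fall together between libraries (below), these 7 signs are not 7 independent results.

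The call of Col5a3 depended on single libraries. Leaving out ApoE-/- 3, ApoE-/- 4, ApoE-/-NPRC-/- 2 or ApoE-/-NPRC-/- 3 left 0 members called. In these fits 535, 537, 404 and 403 of all 20506 loci were called, against 712 with every library. Without ApoE-/- 5 or without ApoE-/-NPRC-/- 1, both of which have conflicting labels, 3 members were called (Col1a1, Col3a1 and Col5a3). Over all loci, 1132 and 1635 were then called. The log2 fold change of Col3a1 was then -1.06 and -1.47, and that of Col1a1 -1.21 and -1.34. None of these fits gave a member an adjusted p under 0.05.

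By genotype entry, no difference in these genes was found between the 5 libraries entered as ApoE-/- and the 3 entered as double knockouts. The standard errors below do not allow the levels to be called equal. The log2 fold changes were -0.11 (SE 0.58) for Col1a1, 0.00 (SE 0.40) for Col1a2, -0.13 (SE 0.56) for Col3a1 and -0.07 (SE 0.30) for Col5a1. They were 0.04 (SE 0.41) for Col5a2, -0.35 (SE 0.52) for Col5a3 and -0.17 (SE 0.89) for Col11a1. The criterion called 0 of 6 tested members and 0.463% of all loci, and 0 of 6 had an unadjusted p under 0.05 (1.31% of all loci, edgeR). The groups overlapped for all 7 members, where 1.2% of all loci did not overlap. Both sets of labels differ only in the libraries whose labels conflict. The groups come closer as ApoE-/- 4, which is high, and ApoE-/-NPRC-/- 2, lowest for most members, change sides. ApoE-/- 5, which is low, and ApoE-/-NPRC-/- 1, the highest titled double knockout, act the other way. By title, the log2 fold change of Col1a1 was -1.21 without ApoE-/- 5 and -1.34 without ApoE-/-NPRC-/- 1, against -1.02 with both. In the 4 libraries with 1 genotype in both labels (3 against 1, with no test), the log2 fold changes were -1.05 for Col1a1, -0.55 for Col1a2, -1.21 for Col3a1, -0.17 for Col5a1, -0.64 for Col5a2, -1.47 for Col5a3 and -1.28 for Col11a1. These values rest on 1 double-knockout library.

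**Figure D2:**
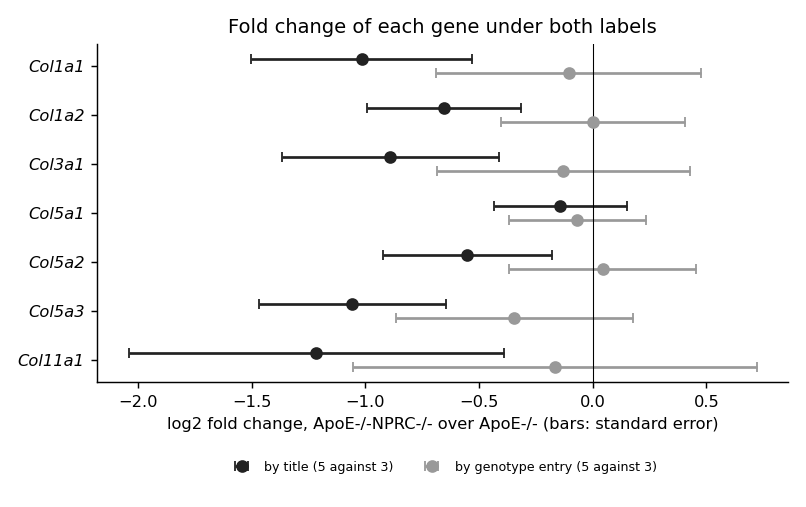
Log2 fold change of counts, ApoE-/-NPRC-/- over ApoE-/- (x axis), for each gene (y axis), from the edgeR fit by title (black) and by genotype entry (grey), each 5 against 3 libraries. Bars are standard errors, derived from the fold change and the F value of the test. All black points are below 0, from -0.14 for Col5a1 to -1.22 for Col11a1, and the grey points lie between -0.35 and 0.04.

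Ratios between chains were compared within libraries, where the depth and scaling of a library cancel. The ratio of Col3a1 to Col1a1 was 1.04 to 1.54 per transcript kilobase and did not follow the title, with a log2 difference between groups of 0.00 (exact two-sided permutation p = 0.964, adjusted over 3 ratios 0.964). That of Col1a1 to Col1a2 was 1.21, 1.28, 1.64, 1.52 and 0.987 in ApoE-/- 1 to 5 and 1.24, 0.938 and 1.01 in ApoE-/-NPRC-/- 1 to 3. It was highest in ApoE-/- 3 and 4, the libraries with the most type I message, and the log2 difference by title was -0.31 (exact two-sided permutation p = 0.179, adjusted 0.268). The ratio of Col5a1 to Col5a2 was 0.899, 0.870, 1.00, 0.744 and 0.967 against 0.931, 1.51 and 1.30. ApoE-/-NPRC-/- 2 and 3 were thus above all other libraries and ApoE-/-NPRC-/- 1 was among the ApoE-/- libraries. The log2 difference was 0.45 (1.37-fold, exact two-sided permutation p = 0.107, adjusted 0.268). The smallest p that 5 against 3 libraries allow is 0.0357. By genotype entry, the 3 differences were -0.07, -0.11 and -0.06 (exact permutation p of 0.714, 0.643 and 0.857).

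**Figure D3:**
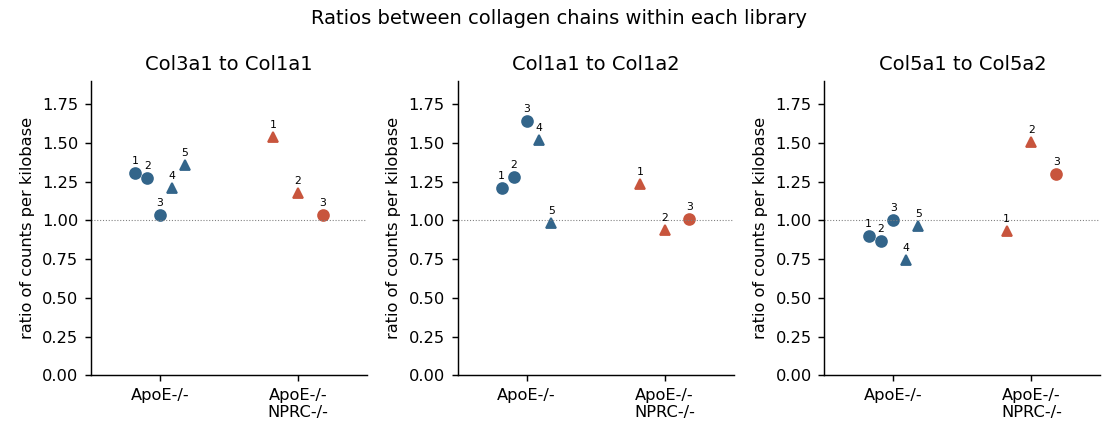
Ratio of counts per kilobase of transcript between pairs of chains (y axis, linear) in each library, by title (x axis). Circles are libraries with the same genotype in both labels, triangles those whose labels differ, numbers are library numbers, and the dotted line is a ratio of 1. Col5a1 to Col5a2 reaches 1.51 and 1.30 in ApoE-/-NPRC-/- 2 and 3, above the 0.744 to 1.00 of the 5 ApoE-/- libraries.

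As a share of the summed per-kilobase level of the 7 genes, Col5a1 was 4.29%, 4.17%, 3.81%, 3.83% and 4.69% in ApoE-/- 1 to 5 and 5.12%, 9.19% and 6.73% in ApoE-/-NPRC-/- 1 to 3. The titled groups did not overlap in this share, which was singled out after its values were seen and was not tested. Nor did they overlap in the share of Col5a2, at 4.78%, 4.80%, 3.80%, 5.15% and 4.85% against 5.50%, 6.10% and 5.185%. The Col5a1 share was highest in ApoE-/-NPRC-/- 2, the lowest library for each of the 6 other members. Col3a1 made up 36.1% to 38.3% of the sum in the ApoE-/- libraries and 40.9%, 30.7% and 30.1% in the double knockouts. By genotype entry the shares of Col5a1 and Col5a2 overlapped. That of Col5a1 was 3.81% to 9.19% in libraries entered as ApoE-/- and 3.83% to 6.73% in those entered as double knockouts.

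The members varied together over the 8 libraries. Of the 21 pairs, 19 had an adjusted p under 0.05 for Pearson's r of log2 CPM (library-scaled counts with TMM factors) and 20 for Spearman's rho, by exact permutation with Benjamini-Hochberg adjustment over the pairs. The r ranged from 0.604 to 0.994 with a median of 0.908. Col1a1 and Col1a2 had r = 0.994 and rho = 1.0 (exact permutation, adjusted p = 0.000174 and 0.000347), and r = 0.991 without the 2 libraries farthest from the median of Col1a1. Col3a1 and Col5a3 had r = 0.98 and rho = 0.929 (adjusted p = 0.000521 and 0.00335, exact permutation) and r = 0.955 without such libraries. Col3a1 and its neighbour Col5a2 had r = 0.971 and rho = 0.952 (adjusted p = 0.000637 and 0.00184, exact permutation), and r = 0.965 without them. Col5a1 had the lowest values, with r = 0.71 and rho = 0.691 to Col5a3 (adjusted p = 0.0508 and 0.0694, exact permutation; r = 0.603 without the 2 farthest) and r = 0.604 and rho = 0.857 to Col11a1 (adjusted p = 0.113 and 0.0118, exact permutation; r = 0.644). The 8 libraries hold both genotypes, and neither titled group has the 6 libraries needed for a value within it. Pairs of other loci were not counted, so no share over all loci stands beside these counts. Loci outside the collagens reached r = 0.987 with the members' mean (below), so varying together is not particular to collagen genes.

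**Figure D4:**
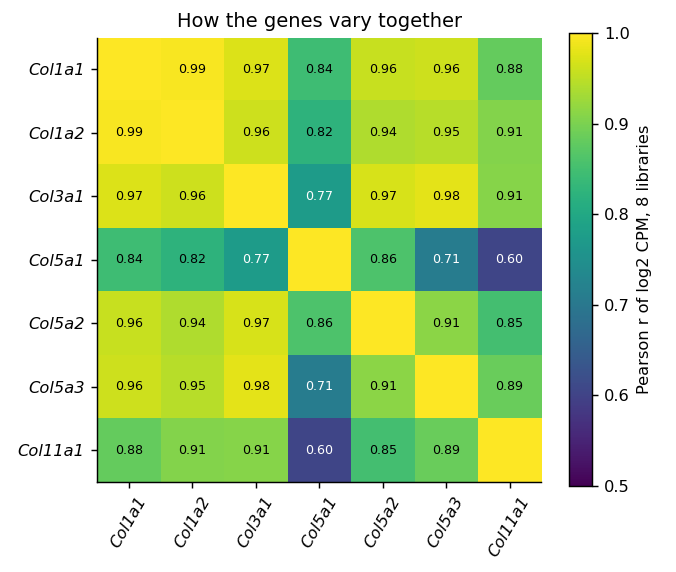
Pearson correlation of log2 CPM between each pair of the 7 genes (both axes) over 8 libraries, as colour from 0.5 to 1 with the value in each square. The row of Col5a1 is the darkest, down to 0.60 with Col11a1, and Col1a1 with Col1a2 is the brightest at 0.99.

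The named loci whose log2 CPM followed the mean of the 7 members most closely had r of 0.985 to 0.987 over the 8 libraries. They were Snx30 (on a row with Gm12543), Tln2, Def6, Tgfbi, Gm15931, Cdh11, Hist1h4f, Ptprf, Mdk and Gpr35. Tgfbi, an extracellular protein that binds collagens, ranged from 22.7 to 81.6 FPKM with a log2 fold change by title of -0.78 (unadjusted p = 0.0360, edgeR). Cdh11, a cadherin of mesenchymal cells, reached 8.96 FPKM with a log2 fold change of -0.87 (unadjusted p = 0.105, edgeR). These are the highest of 20506 values and are given as a description. The mean of the members includes Col11a1, whose log2 CPM of -3.79 in ApoE-/-NPRC-/- 2 lowers the mean of that library. That mean was 6.79, and the next lowest was 7.73 in ApoE-/- 5. How far the named loci depend on this value was not tested.

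Genes of collagen synthesis and turnover were counted from lists beside the members. By title, 7.13% of all loci had an unadjusted p under 0.05 and were lower in ApoE-/-NPRC-/-, and 6.51% were higher, while 0 loci had an adjusted p under 0.05 in edgeR. Among 19 tested chaperones and enzymes of helix modification, 0 were lower and 1 was higher, with a median log2 fold change of -0.12. That 1 was P4ha2, a subunit of prolyl 4-hydroxylase, with a median of 3.34 FPKM in the ApoE-/- libraries and 4.68 FPKM in the double knockouts (log2 fold change 0.47, unadjusted p = 0.0115, adjusted p = 0.285). Of 5 tested genes of propeptide removal, 1 was lower, Pcolce, which enhances the C-proteinase (-0.52, unadjusted p = 0.0460). Of the 5 lysyl oxidases, which crosslink collagen, 0 passed, with Lox at a log2 fold change of -0.58 (unadjusted p = 0.101).

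Among 14 tested fibril-associated collagens and proteoglycans, 2 were lower and 0 higher. Col14a1, a collagen that decorates fibrils, had 55.2 to 78.0 FPKM in the ApoE-/- libraries and 39.0 to 41.2 FPKM in the double knockouts with no overlap (3.66% of all loci were lower with no overlap). Its log2 fold change was -0.62 (unadjusted p = 0.00729, adjusted p = 0.267, edgeR). Dcn, which encodes decorin, a proteoglycan on the fibril surface, had a log2 fold change of -0.84 (unadjusted p = 0.0196). Of 9 tested receptors 1 was lower, the integrin gene Itga2 (-0.94, unadjusted p = 0.0370), and of 14 tested regulators 1 was lower, Tgfb1 (-0.72, unadjusted p = 0.0363), a growth factor that induces collagen genes. Of the other fibrillar collagens, Col27a1 (log2 fold change 0.13) and Col2a1 (-0.69), a cartilage chain, were tested with unadjusted p of 0.581 and 0.678, and 2 of 4 were under the filter. These counts moved when 1 library was left out, an alternative chosen after seeing the data. So did those of all 20506 loci, with 598 to 2380 lower and 674 to 2051 higher at an unadjusted p under 0.05 (edgeR). Fibril-associated genes that were lower numbered 1 to 4 (1 without ApoE-/-NPRC-/- 2, 4 without ApoE-/- 5). Receptors numbered 0 to 2 and regulators 0 to 3, both 0 without ApoE-/- 3, ApoE-/- 4, ApoE-/-NPRC-/- 2 or 3, with 2 receptors without ApoE-/- 5 or ApoE-/-NPRC-/- 1, 3 regulators without ApoE-/- 1 or ApoE-/- 5, and 2 regulators without ApoE-/-NPRC-/- 1. The lower genes of propeptide removal numbered 1 without ApoE-/- 1 or 5 and 0 in the other 6 fits. The higher chaperones and modifying enzymes numbered 0 without ApoE-/-NPRC-/- 3, 2 without ApoE-/-NPRC-/- 2 and 3 without ApoE-/-NPRC-/- 1, and lower ones 2 without ApoE-/- 5. Lysyl oxidases numbered 1 lower without ApoE-/-NPRC-/- 3 and 0 otherwise.

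The list of collagen breakdown and its inhibitors was the one with the most lower genes. Of its 11 tested genes, 4 had an unadjusted p under 0.05 and were lower, 0 were higher, and all 4 met the fold criterion. By that criterion, 2.39% of all loci were called lower. All 11 log2 fold changes were below 0, with a median of -0.76. Fap, a membrane protease that cuts collagen fragments, had 1.35 to 2.43 FPKM in the ApoE-/- libraries and 0.57 to 1.27 FPKM in the double knockouts with no overlap (-1.09, unadjusted p = 0.00643, adjusted p = 0.266). Mmp14, a membrane collagenase, had 10.5 to 27.1 against 6.79 to 10.2 FPKM (-1.21, unadjusted p = 0.00805). Mmp2, a gelatinase that Mmp14 activates, had 29.5 to 67.6 against 15.4 to 34.4 FPKM (-1.04, unadjusted p = 0.0173). Mmp13, the main rodent interstitial collagenase, had 1.94 to 32.9 against 0.43 to 3.75 FPKM (-2.82, unadjusted p = 0.0322). With each library left out in turn, 2 to 7 of the 11 passed, the fewest without ApoE-/-NPRC-/- 2 or 3 and the most without ApoE-/-NPRC-/- 1, and 6 passed without ApoE-/- 5. The lower loci among all 20506 moved the same way, from 1462 with every library. They were 598 and 699 without ApoE-/-NPRC-/- 2 and 3, 2380 without ApoE-/-NPRC-/- 1 and 2086 without ApoE-/- 5. Of the 11, those that also met the fold criterion numbered 1 to 6, where 227 to 1090 of all loci were called lower. The count was 1 without ApoE-/- 3, ApoE-/-NPRC-/- 2 or 3, and 6 without ApoE-/-NPRC-/- 1. By genotype entry, 0 genes of any of these lists passed at an unadjusted p under 0.05, where 1.31% of all loci did.

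Macrophage and smooth muscle markers differed by title at an unadjusted p under 0.05, where 7.13% of all loci were lower and 6.51% higher (edgeR). By genotype entry 0 markers of any list did, and as only 1.31% of all loci passed, a count of 0 lies near that share. With 1 library left out, 598 to 2380 of all 20506 loci were lower by title and 674 to 2051 higher. Of 10 macrophage markers, 6 were lower at an unadjusted p under 0.05 and 0 higher (3 to 10 lower with 1 library left out, the fewest without ApoE-/-NPRC-/- 2 or 3 and the most without ApoE-/- 5). Their summed level was 2203, 3049, 4787, 4841 and 1651 CPM in ApoE-/- 1 to 5 and 2422, 1189 and 1033 CPM in ApoE-/-NPRC-/- 1 to 3, so ApoE-/- 3 and 4 were highest here too. The same libraries were highest in the sums of the chaperone, propeptide removal, crosslinking, fibril-associated and breakdown lists, but not in those of receptors or regulators. Of 10 smooth muscle markers, 9 were higher in ApoE-/-NPRC-/- and 0 lower (2 to 9 higher with 1 library left out, with 5 without ApoE-/-NPRC-/- 2 and the fewest without ApoE-/-NPRC-/- 3), with a summed level of 6207 to 8089 CPM against 7854 to 14960 CPM. Of 9 tested fibroblast markers, 2 were lower and 0 higher (1 to 3 lower with 1 library left out, 1 without ApoE-/- 3, ApoE-/-NPRC-/- 2 or 3). Summed, the fibroblast markers had 1460, 2079, 1875, 1419 and 1536 CPM in ApoE-/- 1 to 5 against 1327, 1372 and 1482 CPM, so ApoE-/- 4 was not high here. Endothelial markers (10 tested) and adipocyte markers (9 tested) had 0 in either direction, at 1336 to 1589 against 1361 to 1419 CPM and 885 to 2955 against 1412 to 2249 CPM. Of the cartilage markers 1 of 5 tested was lower (86.9 to 270 against 96.2 to 162 CPM), of the striated muscle markers 1 of 6 was higher (110 to 278 against 201 to 375 CPM), and of the T and B cell markers 1 of 4 was lower (21.5 to 79.0 against 10.7 to 24.9 CPM). With 1 library left out, 0 to 1 endothelial and 0 to 1 adipocyte markers were lower, 1 to 3 cartilage (3 without ApoE-/- 5) and 1 to 2 T and B cell markers (2 without ApoE-/- 1, ApoE-/- 5, ApoE-/-NPRC-/- 1 or 3) were lower, and 0 to 2 striated muscle markers were higher (2 without ApoE-/- 5, 0 without ApoE-/- 3, ApoE-/- 4, ApoE-/-NPRC-/- 2 or 3). No marker was at 0 in every library, and the summed levels of the titled groups overlapped for each list. The most abundant locus, which carries Rn7s1 among its names, held 1.32% to 4.62% of the counts, with the most in ApoE-/- 3 and 4, followed by ApoE-/-NPRC-/- 1 with 3.45%. The part of these cell types and of this locus in the values of the collagen genes was not tested.

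**Figure D5:**
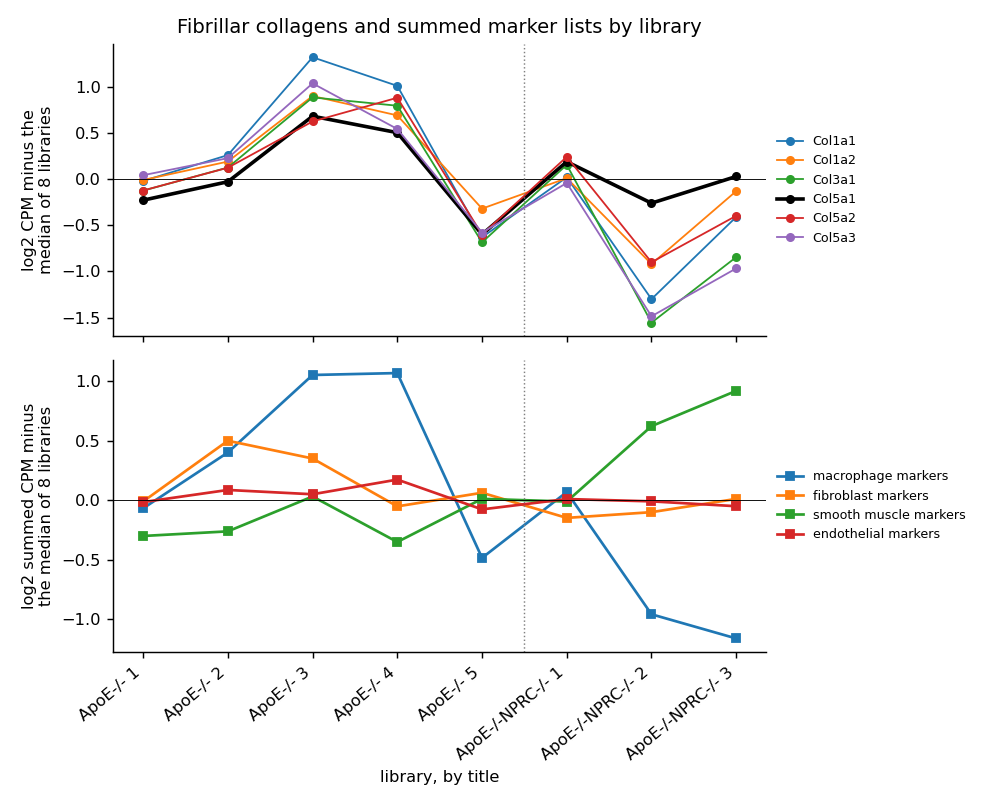
Upper panel, log2 CPM of 6 of the genes minus their median over 8 libraries (y axis) in each library (x axis, by title). Lower panel, the same for the summed CPM of 4 marker lists, with lines only to guide the eye and the dotted line between the titled groups. The collagen genes and the macrophage markers (2203, 3049, 4787, 4841 and 1651 against 2422, 1189 and 1033 CPM) are highest in ApoE-/- 3 and 4, and in ApoE-/-NPRC-/- 2 Col5a1 (black) is the gene nearest to its median.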

How the data were processed

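Poly(A) RNA of whole aortas was sequenced in 8 libraries. The authors trimmed reads (cutadapt 1.9 per the labels), aligned these using HISAT2 and built loci using StringTie. They deposited whole-number counts per assembled locus, without normalization, and FPKM values, which the authors scaled to locus length and library. How strand entered the counts is not given in the sources used here, so reads of overlapping loci may be shared. The symbol row with the most counts was used (4195 symbols had several).

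The 20506 loci that reached 1 FPKM in 3 or more libraries were fitted with edgeR 4.0.16 in R 4.3.3 (TMM, quasi-likelihood test, Benjamini-Hochberg adjustment, and log2 CPM with a prior count of 2). The test was run on simulated data with a common dispersion and larger changes than the members showed in this fit. It was not checked for changes of their size. Standard errors given with edgeR are the size of the log2 fold change divided by the square root of the test's F value. Ratios and correlations used exact permutation. Alternatives covered the label, test (DESeq2 1.42.0, limma 3.58.1), scaling, filter, pseudocount, row, replicate block and each library left out. Depth was 62969165 to 86693276 counts, and the number of libraries limits the precision (biological coefficient of variation 0.327). The members and gene lists were chosen with earlier results of these data known. Named genes are the members, up to 4 genes with the smallest p of each list, any needed to account for a small count, and the 10 loci most like the members' mean.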

Additional observations from a re-analysis of the deposited data

Results flagged for a closer look

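Of 20 groups of 4 or more libraries tested for a library far from the others, 2 had one, where chance gives about 1.0. Both were the library titled ApoE-/-NPRC-/- 2 within the 5 libraries entered as ApoE-/-. Its log2 CPM of Col11a1 was -3.79, from 3 counts, with the nearest library at 0.50. Its log2 FPKM ratio of Col5a1 to Col5a2 was 2.30, with the nearest at 1.72. By title, this library is in a group of 3, which was not tested in this way.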

How the results depend on the processing

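No member had an adjusted p under 0.05 in any setting, and the smallest were 0.0643 for Col5a3 and 0.0797 for Col3a1, both with voom quality weights. By genotype entry, the log2 fold changes of Col1a2 (0.0006) and Col5a2 (0.0436) and the ratio differences of Col3a1 to Col1a1 (-0.0733) and Col5a1 to Col5a2 (-0.0604) changed sign. The count of members called, 1 by title, was 0 by genotype entry, with limma on log2(FPKM + 1) and under a filter of 5 FPKM on the mean, 2 with DESeq2 and 3 with voom weights. At an unadjusted p under 0.05 it was 0 by genotype entry and at the 5 FPKM filter, which removed Col5a3 and Col11a1, 4 with DESeq2 and 5 with voom weights. Of all loci, 2797 passed this threshold by title and 269 by genotype entry. It was passed by 736 at the 5 FPKM filter, 3423 with DESeq2 and 5419 with voom weights. The count of all loci called, 712 by title, was 95 by genotype entry and 175 with limma on log2(FPKM + 1). It was 798 with DESeq2, 1491 with voom weights, 2287 without a filter (44689 loci tested) and 114 at the 5 FPKM filter (4246 tested). Apart from the number of loci tested, the cause was not tested. DESeq2 gave 650 loci an adjusted p under 0.05 and voom weights 130.

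With each library left out in turn, log2 fold changes were -1.34 to -0.70 for Col1a1, -0.83 to -0.39 for Col1a2, -1.47 to -0.55 for Col3a1, -0.28 to 0.0451 for Col5a1 (above 0 without ApoE-/- 3), -0.90 to -0.29 for Col5a2, -1.56 to -0.76 for Col5a3 and -2.07 to -0.64 for Col11a1. The members called were 0 to 3, where 403 to 1635 of all loci were called. Those with an unadjusted p under 0.05 were 0 to 4, where 1332 to 4431 of all loci passed. Those with an adjusted p under 0.05 were 0 to 0. Ratio differences were -0.16 to 0.13 for Col3a1 to Col1a1 (-0.0605 without ApoE-/- 3, -0.0045 without ApoE-/- 4, -0.16 without ApoE-/-NPRC-/- 1), -0.42 to -0.23 for Col1a1 to Col1a2 and 0.30 to 0.65 for Col5a1 to Col5a2.

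The library numbers did not pair the libraries (correlation of deviations between same-numbered libraries -0.27, -0.13 and -0.01). In the 6 libraries numbered 1 to 3, the fit with the replicate block gave 800 changed loci against 917 without it, and log2 fold changes of -1.10 for Col1a1 and -1.07 for Col3a1 with the block. Among the members, low counts limit Col11a1.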
